A study of Mus musculus with 4 samples.

Results

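Pthlh/Wnt4 cells were studied in single-cell RNA libraries of sorted CD31+/CD45- cells from hearts of C57Bl6J mice. The cells were chosen by a rule on summed unique molecular identifiers (UMIs, 1 per captured transcript). A cell was kept when it held at least 1 UMI of the endothelial genes Pecam1, Cdh5 and Egfl7, at least 2 UMIs over Pthlh, Wnt4, Nppc and Adamts8 (the W sum), and fewer UMIs over Cldn11, Enpp2, Aqp8 and Lsamp (the V sum). The rule found 246 of 16912 cells with an endothelial UMI and of 21920 barcodes in all. E12 gave 23 such cells, E15 gave 33, P2 gave 174 and the adult at 8 weeks gave 16. Every stage was 1 library, the labels name no treatment or transgene, and animals were pooled, with 37 hearts for E12, 48 for E15, 21 for P2 and 6 for the adult library. Cells of 1 library are not replicates, so no test between stages was possible. Cell groups occur together in all 4 libraries, but they were chosen by counts and the libraries are different stages, so no test was made between groups and all comparisons are descriptions. Intervals are 95% and cover counting error only.

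Cardiac valves are lined by an endothelium that arises from the endocardium over the cushions, where some endocardial cells become mesenchyme and the leaflets are later remodeled. The faces of a leaflet see different flow, and valve endothelium is known to differ between them. Secreted factors of the lining act on the interstitial cells below it. Pthlh encodes parathyroid hormone-related protein, the ligand of the receptor Pth1r. Wnt4 encodes a Wnt ligand. Nppc encodes C-type natriuretic peptide, which signals through Npr2 and is cleared by Npr3. Adamts8 encodes a secreted metalloprotease. Cryab encodes a small heat shock protein, and Hapln1 a link protein that holds hyaluronan to proteoglycans.

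Promoters of the genes that chose the cells are shown because these transcripts define the members. RefSeq sequences on GRCm38.p6 were given for Pthlh, Wnt4 and Nppc, and run from 250 bases before to 50 bases after the gene start. The core letters CACCC of sites for Klf factors were searched on both strands and are in capitals (GGGTG on the reverse strand). Nppc lies at chr1:86670524-86670823, minus strand, with 1 match. Pthlh lies at chr6:147263964-147264263, minus strand, with 2 matches. Wnt4 lies at chr4:137277385-137277684, plus strand, with no match in this window. Of 32851 promoters of the same length, 57.5% hold the letters. The core letters GGAAA of NFAT sites, searched in the same way, were in none of the 3 promoters, so that no match overlapped CACCC, and in 61.3% of all promoters. A match is a run of letters and not a site.
Pthlh: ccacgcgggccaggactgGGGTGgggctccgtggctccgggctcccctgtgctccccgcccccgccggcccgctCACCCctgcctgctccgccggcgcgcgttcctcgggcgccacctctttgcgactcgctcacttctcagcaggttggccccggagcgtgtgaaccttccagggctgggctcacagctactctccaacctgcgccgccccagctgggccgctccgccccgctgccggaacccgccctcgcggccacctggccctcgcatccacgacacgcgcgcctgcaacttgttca
Wnt4: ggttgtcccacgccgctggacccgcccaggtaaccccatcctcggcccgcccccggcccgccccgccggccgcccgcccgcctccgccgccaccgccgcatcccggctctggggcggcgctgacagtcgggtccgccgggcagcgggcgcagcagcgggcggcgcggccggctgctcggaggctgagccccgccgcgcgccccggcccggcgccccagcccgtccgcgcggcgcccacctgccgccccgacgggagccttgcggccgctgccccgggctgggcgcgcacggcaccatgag
Nppc: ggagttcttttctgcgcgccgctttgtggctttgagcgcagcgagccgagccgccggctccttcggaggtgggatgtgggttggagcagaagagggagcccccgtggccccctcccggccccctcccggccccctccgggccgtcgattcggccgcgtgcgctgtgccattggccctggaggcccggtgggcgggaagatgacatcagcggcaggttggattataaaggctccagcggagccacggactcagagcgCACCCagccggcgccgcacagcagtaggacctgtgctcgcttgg

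Wnt4 held most W transcripts of the embryonic members and Pthlh most of the adult ones. Levels are CPM, the UMIs of a gene scaled by all UMIs of the group, with stages in the order E12, E15, P2 and adult. In the Pthlh/Wnt4 cells, Wnt4 was at 1810 CPM (61 UMIs), 1223 CPM (64 UMIs), 81.3 CPM (96 UMIs) and 0, where in the adult a count of 0 allows up to 56.5 CPM, the level of 3 counts. The embryonic cells were thus mostly chosen by Wnt4, which had a UMI in 22 of 23 cells at E12 and 28 of 33 at E15 against 51 of 174 at P2. Pthlh was at 504 CPM (17 UMIs), 554 CPM (29 UMIs), 715 CPM (844 UMIs) and 1526 CPM (81 UMIs) over the stages. It had a UMI in 11, 13, 135 and 15 members. A sum of 2 UMIs is a higher CPM in a shallow cell than in a deep one, and the members had a median of 1393, 1276, 6204 and 3162.5 UMIs, so these levels are given without a comparison between stages.

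The levels above are conditioned on the rule, since each member had to hold W transcripts. Over all endothelial-marker cells, Wnt4 was at 30.7, 26.4, 8.35 and 1.76 CPM. These cells were not chosen on the W or V sum, but each had to hold an endothelial UMI. Of all barcodes, 47.7%, 69.2%, 99.8% and 96.9% did so. Pthlh over the same cells was at 7.54, 8.94, 34.8 and 14.2 CPM. The intervals of Wnt4 at E12 (25.5 to 36.6 CPM) and E15 (22.1 to 31.3 CPM) overlapped, and that at P2 (7.34 to 9.46 CPM) lay below both. The interval of Pthlh at P2 (32.7 to 37.0 CPM) lay above those of the other stages, the nearest being the adult (11.6 to 17.2 CPM). Within each library, fewer cells of a type and less RNA per cell cannot be told apart in such a sum. In the E12 barcodes with under 100 UMIs, taken as free RNA, Wnt4 was at 23.3 CPM (13.6 to 37.4) and Pthlh at 4.12 CPM (0.850 to 12.04).

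Nppc was at 148 CPM (5 UMIs), 57.3 CPM (3 UMIs), 350 CPM (413 UMIs) and 207 CPM (11 UMIs) in the members over the stages. Only P2 gave Nppc more than 11 UMIs, and all 3 at E15 came from 1 cell. Adamts8 was at 297 CPM (10 UMIs), 516 CPM (27 UMIs), 346 CPM (409 UMIs) and 433 CPM (23 UMIs). In the adult 13 of the 23 Adamts8 UMIs lay in 1 cell. At P2 the members held 92.8% of all Nppc UMIs of the library, 81.9% of Pthlh, 73.6% of Adamts8 and 38.9% of Wnt4, while in the embryonic libraries they held between 25% (Adamts8, E12) and 55.6% (Nppc, E12).

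Pairs of the 4 genes were counted at P2 over all endothelial-marker cells, since the sum of at least 2 UMIs favors pairs among the members. Of the 76 cells with Nppc, 60.5% had Pthlh, 27.6% Wnt4 and 19.7% Adamts8, and of the cells without Nppc 4.16%, 2.95% and 3.18% had them. Of the 287 cells with Pthlh, 16.0% had Nppc, 15.3% Adamts8 and 14.98% Wnt4. Of the P2 members, 87 held UMIs of 1 of the 4 genes, 55 of 2, 24 of 3 and 8 of all 4. At least 2 of the genes were found in 14 of 23 at E12, 16 of 33 at E15 and 3 of 16 in the adult. Deep cells hold more UMIs of every gene, and the part of depth in this pairing was not tested.

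**Figure D1:**
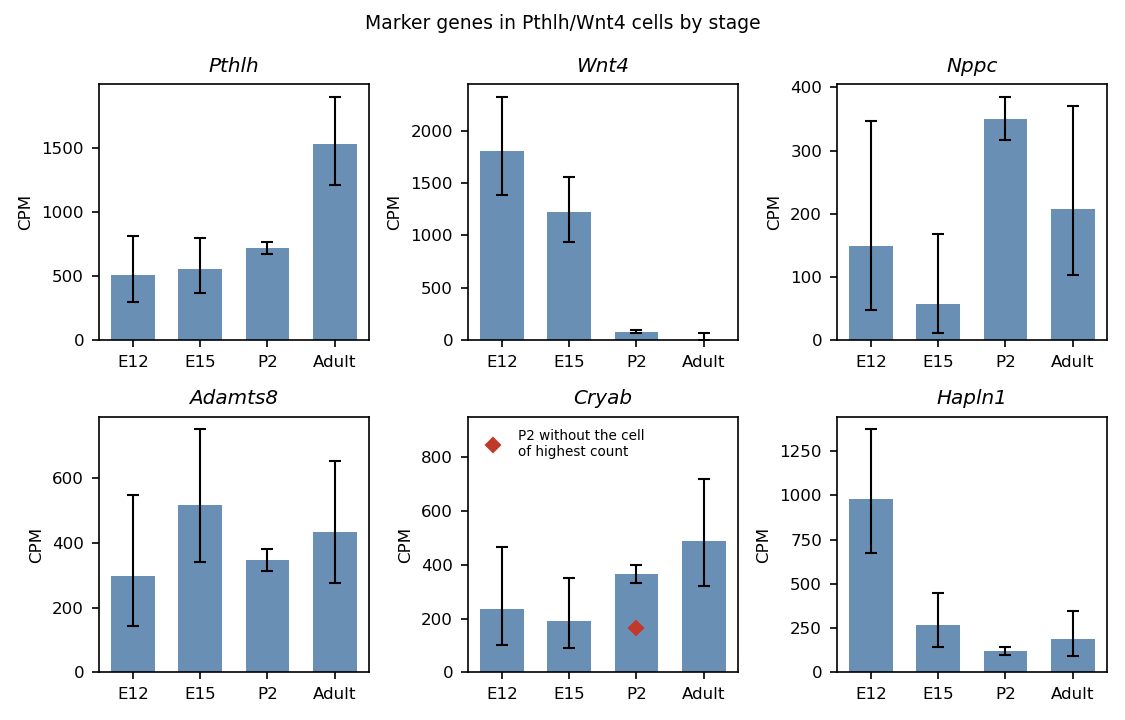
Summed level (CPM) of 6 marker genes in the Pthlh/Wnt4 cells of each stage; bars are the level of the 1 library and lines the 95% Poisson interval. Wnt4 and Pthlh are among the genes that chose the cells (Wnt4 at 1810 CPM at E12 and with no UMI in the 16 adult members), and the diamond shows Cryab at P2 without the cell that holds 238 of its 430 UMIs.

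The share of Pthlh/Wnt4 cells was largest at P2, the deepest library. It was 0.840% of endothelial-marker cells at E12 (exact Clopper-Pearson interval 0.533 to 1.26), 0.787% at E15 (0.542 to 1.10), 2.96% at P2 (2.54 to 3.43) and 0.389% in the adult (0.223 to 0.632). P2 had a median of 4531.5 UMIs per barcode against 1241, 1013 and 1510. When cells were thinned to 500 UMIs the rule found 3 of 1564 cells (0.192%), 11 of 2724 (0.404%), 22 of 4434 (0.496%) and 4 of 3495 (0.114%). Before thinning, 83 barcodes at E12 and 364 at E15 held under 500 UMIs, so these could not be thinned to that depth. The thinned intervals of E15 (0.202 to 0.721%) and P2 (0.311 to 0.750%) overlapped. That of the adult (0.0312 to 0.293%) lay below that of P2, and that of E12 (0.0396 to 0.560%) overlapped both. These intervals cover counting error over the cells of 1 library per stage, so nothing is concluded on differences between stages. A further 19 barcodes at E12 and 20 at E15 met the W and V conditions without an endothelial UMI and were not members.

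**Figure D2:**
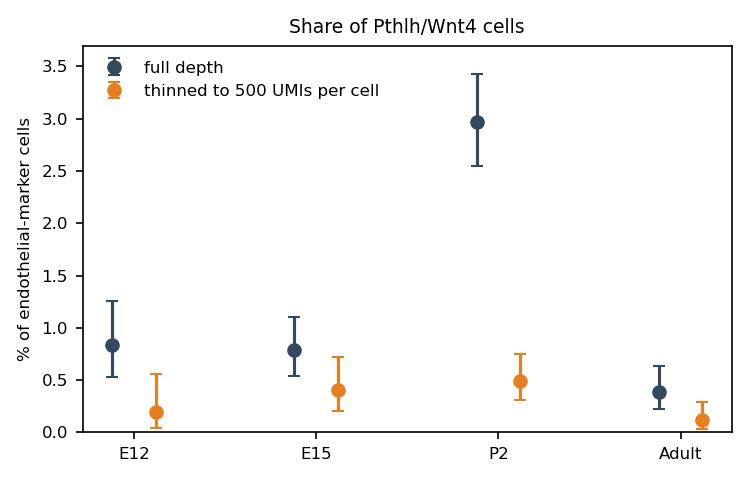
Share of Pthlh/Wnt4 cells among endothelial-marker cells (%) by stage, at full depth and with cells thinned to 500 UMIs; lines are exact 95% intervals. P2 stands at 2.96% at full depth and at 0.496% after thinning.

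Many members lay at the threshold. The W sum was 2 in 6, 20, 59 and 4 cells over the stages. It reached 10 or more in 1, 2, 43 and 4 cells, with the highest sum of 97 UMIs at P2. The 43 cells held 73.6% of the W transcripts of the P2 members. Just inside the threshold at P2 stood 59 cells with a W sum of 2, of which 47 had a V sum of 0. Just outside it were 298 cells with a W sum of 1, all with a V sum of 0. The capillary marker list (Fabp4, Gpihbp1, Aplnr and 6 others) summed to 4874 CPM in the former and 12384 CPM in the latter. Prnp was at 340 and 199 CPM, Meg3 at 273 and 39.7 CPM, and Hapln1 at 30.9 and 38.5 CPM. Of the embryonic members, 10 at E12 and 10 at E15 had a single endothelial UMI.

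The label of a valve endothelium was compared with marker lists, and the data carried no information on where a dissociated cell had been in the heart. All 10 pan-endothelial markers had UMIs in the members of every stage, with a sum of 4155, 4223, 6197 and 6708 CPM, but the rule itself asked for Pecam1, Cdh5 or Egfl7. The other 7 were Kdr, Tie1, Tek, Emcn, Esam, Ramp2 and Ecscr. The 10 endocardial markers summed to 1543, 2006, 2035 and 5879 CPM in the members, and in the adult 256 of their 312 UMIs were Cytl1. Endocardial-rule cells, which were chosen on some of these genes, had 2472, 3113, 3315 and 6326 CPM, and Cldn11/Enpp2 cells, which had a V sum of at least 2 above their W sum, 1250, 1203, 1826 and 1326 CPM. Coronary-rule cells held more UMIs of Fabp4, Aplnr, Gpihbp1 and Cldn5 than of Npr3, Cytl1, Tmem108 and Plvap, and endocardial-rule cells the opposite, with at least 2 UMIs of the higher sum and under 2 for both valve sums. Nfatc1, a transcription factor of endocardial and valve endothelium and the most abundant of the 10 at E12, was at 475, 229, 112 and 56.5 CPM in the members and at 58.9, 35.3, 55.1 and 29.1 CPM in endocardial-rule cells. Of the same 10 markers, Cytl1, Pla2g7, Prr15 and Hand2 had no UMI in the E12 members, and Prr15 had none at E15. Capillary markers (9 genes) summed to 59.4, 459, 4213 and 2940 CPM in the members. They stood at 37.9, 135, 705 and 1579 CPM in endocardial-rule cells and at 1272, 6652, 20485 and 30860 CPM in coronary-rule cells. Fibroblast markers (5 genes, mostly Dcn after birth, with Tcf21 at 0) summed to 89.0, 306, 747 and 1809 CPM in the members and cushion mesenchyme markers (9 genes, with Prrx1 at 0) to 1128, 669, 878 and 264 CPM. In endocardial-rule cells these lists stood at 138, 327, 947 and 3542 CPM and at 708, 713, 969 and 593 CPM. Vein markers (4 genes) summed to 178, 268, 401 and 1149 CPM in the members, with Vwf as 47 of the 61 UMIs in the adult, against 305, 396, 496 and 1152 CPM. Macrophage markers summed to 0, 19.1, 5.08 and 0 CPM, with Ptprc among the genes at 0 in all 4 stages, and mural markers to 267, 57.3, 10.2 and 18.8 CPM. Cardiomyocyte markers stood at 287 CPM (15 UMIs, 7 of them Tnnt2) in the E15 members and at 39.5 to 64.2 CPM in the other E15 groups. The part of these transcripts in the levels was not tested.

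In genes that the rule did not use, the P2 cells with a high W sum had mostly members around them. Each cell's 20 nearest neighbours were found from 2000 variable genes without any rule gene. Pthlh/Wnt4 cells made up 17.8%, 11.1%, 30.1% and 17.2% of the neighbours of members over the stages, while they were 0.840%, 0.787%, 2.96% and 0.389% of all endothelial-marker cells. At P2 the share was larger at a higher W sum, from 15.4% for sums of 2 to 3 to 29.9% for 4 to 9 and 60.7% for 10 or more. Of the 43 cells with the highest sums, 40 had at least 5 members among their neighbours. Members with sums of 2 to 3 had 40.1% coronary-rule and 31.3% endocardial-rule neighbours, and all P2 members had 31.8% and 24.5%. Of all P2 endothelial-marker cells, 69.9% were coronary-rule and 18.5% endocardial-rule cells. In the adult, members had 39.7% coronary-rule and 31.9% endocardial-rule neighbours, where these groups were 95.1% and 3.21% of all endothelial-marker cells. At E15, 13 of 33 members had no member among their neighbours. Cldn11/Enpp2 cells made up 1.74%, 7.42%, 10.9% and 5.94% of the members' neighbours over the stages. They were 0.475%, 1.36%, 7.19% and 0.584% of all endothelial-marker cells. Their own neighbours at P2 were 42.6% Cldn11/Enpp2 cells and 4.75% members. The median depth of the 3 ranges was 5996, 6218.5 and 7035 UMIs.

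**Figure D3:**
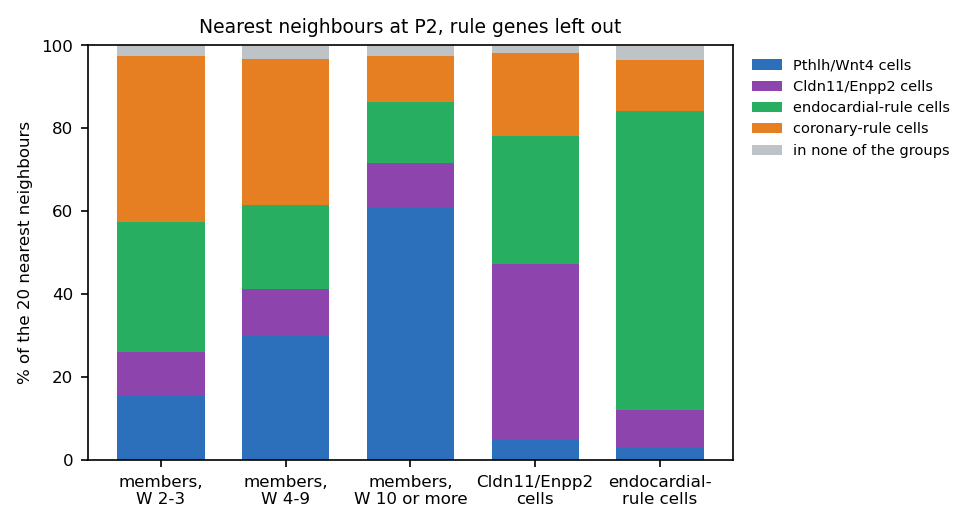
Makeup (%) of the 20 nearest neighbours at P2, without the rule genes, for Pthlh/Wnt4 cells (members) in 3 ranges of the W sum and for 2 other groups. The share of members among the neighbours goes from 15.4% at sums of 2 to 3 to 60.7% at sums of 10 or more.

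Cryab was higher in Pthlh/Wnt4 cells than in the other groups at every stage, but 1 cell carried most of it at P2. Its level in the members was 237 CPM (8 UMIs), 191 CPM (10 UMIs), 364 CPM (430 UMIs) and 490 CPM (26 UMIs) over the stages. Cldn11/Enpp2 cells stood at 0, 10.3, 34.8 and 126 CPM, and endocardial-rule cells at 11.8, 20.6, 36.3 and 227 CPM. A single P2 cell of 6088 UMIs held 238 of the 430 Cryab UMIs, together with 36 of Pthlh and 29 of Adamts8. Without it the P2 level was 163 CPM. The Mantel-Haenszel ratio over the 4 stages to Cldn11/Enpp2 cells was 9.77 (7.86 to 12.1) with this cell and 4.85 without it, and that to endocardial-rule cells 8.34 (7.16 to 9.71) and 4.22. Members with a V sum of 0 gave 4.08 and 3.53. That setting also leaves out the single cell, which held 2 UMIs of Cldn11 and 2 of Enpp2.

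Hapln1 separated the members from the endocardium but hardly from the Cldn11/Enpp2 cells. It was at 979 CPM (33 UMIs), 268 CPM (14 UMIs), 119 CPM (141 UMIs) and 188 CPM (10 UMIs) in the members. Cldn11/Enpp2 cells had 568, 309, 75.3 and 58.1 CPM, and endocardial-rule cells 225, 33.6, 12.02 and 37.8 CPM. Hapln1 was below the Cldn11/Enpp2 level at E15, with a ratio of 0.867 (0.425 to 1.69), and was above it at P2, at 1.59 (1.26 to 1.99). The ratio over stages was 1.55 (1.28 to 1.88) to Cldn11/Enpp2 cells and 7.56 (6.11 to 9.34) to endocardial-rule cells. In cells with a W sum of 10 or more these ratios were 3.52 and 18.9. Free RNA at E12 held 214 CPM of Hapln1, close to the endocardial-rule level of that stage.

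The contrast with Cldn11/Enpp2 cells is the one the rule was built on, so its genes are listed and nothing is read from their number. A gene was called when the log2 ratio of CPM, with 20 CPM added to each side, was at least 1 or at most -1 in both E15 and P2, the stages with 30 or more cells. Of 1105 genes with at least 20 UMIs in each stage, 15 were called higher (1.36%) and 11 lower (0.995%). Outside the rule's own genes, 12 were higher and 7 lower. The higher genes were Meg3, Prnp, Klk8, Aqp1, Fxyd5, Slc9a3r2, Adam15, Crip1, Pdlim3, Emp3, Ptprb and Nts. All 12 were at or above the level of Cldn11/Enpp2 cells at E12, and 11 of 12 in the adult, where Meg3 was at 0 in the members.

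Prnp, which encodes the cellular prion protein, was at 475 CPM (16 UMIs), 459 CPM (24 UMIs), 891 CPM (1052 UMIs) and 980 CPM (52 UMIs) in the members of E12, E15, P2 and the adult. Cldn11/Enpp2 cells held 0, 113, 147 and 533 CPM, and the P2 ratio was 6.07 (5.38 to 6.86). Meg3, a maternally expressed long noncoding RNA, was at 1365 CPM (46 UMIs), 1070 CPM (56 UMIs), 600 CPM (708 UMIs) and 0 in the members, against 492, 247, 89.2 and 261 CPM. Its P2 ratio was 6.72 (5.77 to 7.86). Both genes were thus above the Cldn11/Enpp2 cells in the 3 younger stages, whereas Meg3 lay below them in the adult. Aqp1, the water channel aquaporin 1, was at 831, 707, 859 and 2563 CPM in the members and at 454, 123, 234 and 581 CPM in Cldn11/Enpp2 cells.

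Crip1, a small LIM domain protein, was the most abundant of the 12 genes. It was at 5282, 3917, 6827 and 12945 CPM in the members and at 530, 1173, 2664 and 5122 CPM in Cldn11/Enpp2 cells, with a P2 ratio of 2.56 (2.48 to 2.65). Nts, the precursor of the peptide neurotensin, was at 573 CPM at E15 and 2770 CPM at P2 in the members, against 237 and 1348 CPM. In the adult 26 of its 27 UMIs in members lay in 1 cell. Ptprb, the endothelial phosphatase VE-PTP, was at 363 and 262 CPM at E15 and P2 against 30.9 and 110 CPM, and Klk8, a secreted serine protease, at 306 and 388 CPM against 72.0 and 90.8 CPM. Slc9a3r2, Fxyd5, Adam15, Pdlim3 and Emp3 had P2 ratios between 2.38 and 2.79.

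Lower than in Cldn11/Enpp2 cells were Ccl21a, Pdgfra, Ahsg, Fbn2, Postn, Ebf1 and Mfap2. Fbn2, Postn and Mfap2 encode matrix proteins, of which periostin marks cushion and leaflet matrix. Postn was at 229 CPM at E15 and 310 CPM at P2 in the members, against 597 and 952 CPM. Pdgfra, a receptor of mesenchymal cells, was at 19.1 and 5.08 CPM against 257 and 119 CPM. Ccl21a, a chemokine of lymphatic endothelium, was at 114 CPM at P2 against 1612 CPM, and 74 of its 135 UMIs in members lay in 1 cell. The Cldn11/Enpp2 cells held transcripts of other cell types beside these genes. At P2 their lymphatic marker list (7 genes, mostly Ccl21a) summed to 1964 CPM against 237 CPM in members, the fibroblast list (5 genes, mostly Dcn) to 1884 against 747 CPM, and the cushion mesenchyme list (9 genes, mostly Postn) to 1538 against 878 CPM. Their part in the lower genes was not tested.

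Endocardial-rule cells gave a wider comparison, with 7317 genes tested. The rule chose the members on the W genes here too, and both groups are selected on counts, so the calls are again a description. There were 72 genes called higher (0.984%) and 44 lower (0.601%), of which 67 and 42 lay outside the rules. The median log2 ratio over all tested genes was -0.08 at E15 and -0.03 at P2. Of the 10 endocardial markers none was called higher and 3 were lower (Npr3, Plvap and Prr15), of which Npr3 and Plvap are genes that endocardial-rule cells were chosen on. The 12 genes with the largest increase in the weaker of the 2 stages were Prnp, Stmn2, Rbp7, Aqp1, S100a6, Fxyd5, Cryab, Meg3, Hapln1, Pi16, Hbegf and Plpp1. They were also at or above the level of endocardial-rule cells in 11 of 12 cases at E12 and 11 of 12 in the adult.

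**Figure D4:**
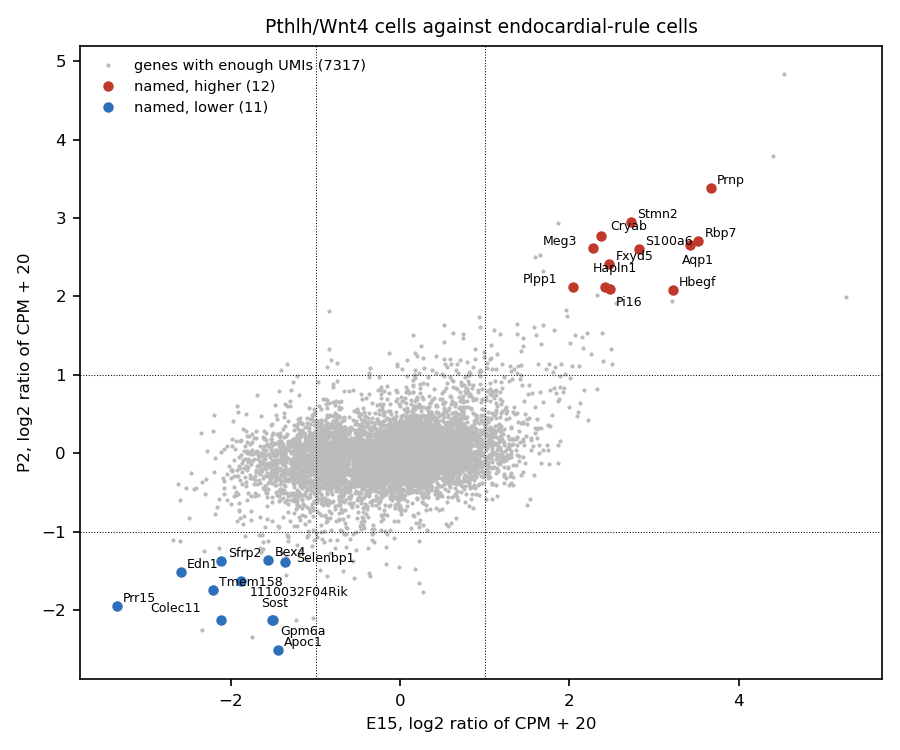
Log2 ratio of CPM plus 20 in Pthlh/Wnt4 cells to endocardial-rule cells, at E15 (x axis) and P2 (y axis), for the 7317 genes with enough UMIs; dotted lines mark a 2-fold ratio, and grey points far to the upper right include genes of the rule. The named genes lie beyond the lines on both axes.

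Prnp came first in this order, with a ratio to endocardial-rule cells of 26.0 (14.5 to 45.9) at E15 and 13.2 (11.6 to 14.9) at P2, with endocardial-rule levels of 10.1, 17.7, 67.7 and 128 CPM over the stages. Stmn2, a tubulin-binding phosphoprotein known from neurons, was at 267, 268, 308 and 301 CPM in the members and at 15.1, 23.6, 22.4 and 84.3 CPM in endocardial-rule cells. Hbegf, an epidermal growth factor ligand with a known role in valve remodeling, was at 326, 287, 197 and 151 CPM against 18.5, 13.0, 31.5 and 49.4 CPM. Its level in Cldn11/Enpp2 cells was 151, 195, 144 and 67.8 CPM, so Hbegf was above the endocardial-rule level in both these cells and the members. The same held for S100a6, a calcium-binding protein, with 428 CPM in the members, 464 CPM in Cldn11/Enpp2 cells and 53.9 CPM in endocardial-rule cells at P2.

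Some of these genes were also present in coronary-rule cells, which the endocardial rule leaves out. Rbp7, a retinol-binding protein of capillaries, was at 351 CPM in the P2 members, 36.7 CPM in endocardial-rule and 736 CPM in coronary-rule cells, and 16 of its 17 UMIs at E15 lay in 1 cell. Aqp1 was at 545 CPM in P2 coronary-rule cells, and Stmn2 at 120 CPM. Prnp was at 209 CPM there, below the 891 CPM of the members, and Cryab at 9.12 CPM. The P2 members held 4213 CPM of the capillary marker list (9 of 9 genes, mostly Fabp4), the endocardial-rule cells 705 CPM and the coronary-rule cells 20485 CPM. The part of capillary transcripts in the ratios of Rbp7, Aqp1 and Stmn2 was not tested.

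Among the 12 genes lower than in endocardial-rule cells were, in the order of the rule, Colec11, Prr15, Tmem158, 1110032F04Rik, Gpm6a, Edn1, Sost, Apoc1, Sfrp2, Bex4 and Selenbp1. Edn1, the vasoconstrictor peptide endothelin 1, was at 89.0 CPM (3 UMIs) at E12, 0 at E15, 35.6 CPM at P2 and 18.8 CPM (1 UMI) in the adult, against 42.9, 101, 138 and 84.3 CPM in endocardial-rule cells. Sost, an inhibitor of Wnt signaling outside the fixed list, was at 0, 0, 5.93 and 0 CPM against 20.2, 36.5, 92.6 and 113 CPM. Of 11 listed Wnt inhibitors only Sfrp2 could be tested. Sfrp2 was at 0 at E15, at 0.847 CPM (1 UMI) at P2 and at 0 in the adult, but at 148 CPM (5 UMIs in 2 cells) at E12, above the 40.4 CPM of endocardial-rule cells. Dkk2, too sparse at E15 for a call, was higher in the members at P2, at 61.8 against 2.61 CPM.

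Within the P2 members, several of the genes above were more abundant at a higher W sum. Prnp was at 304 CPM in cells with sums of 2 to 3, 856 CPM at 4 to 9 and 2037 CPM at 10 or more. Crip1 went from 3252 over 6523 to 13892 CPM, Aqp1 from 546 over 564 to 1731 CPM, and Meg3 from 244 over 334 to 1526 CPM. Hapln1 was at 34.3, 155 and 247 CPM. Stmn2 did not follow this order, at 319, 258 and 335 CPM. Cryab was at 85.8, 179 and 1067 CPM, and at 299 CPM in the last range without the single cell. Npr3, the clearance receptor for natriuretic peptides, went the other way, at 172, 41.3 and 42.3 CPM. The capillary list summed to 4785, 5093 and 2298 CPM, and the lymphatic list to 369, 141 and 78.1 CPM. The fibroblast list was higher at the highest sums, with 592, 633 and 1149 CPM. The part of these other transcripts in the levels of each range was not tested.

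**Figure D5:**
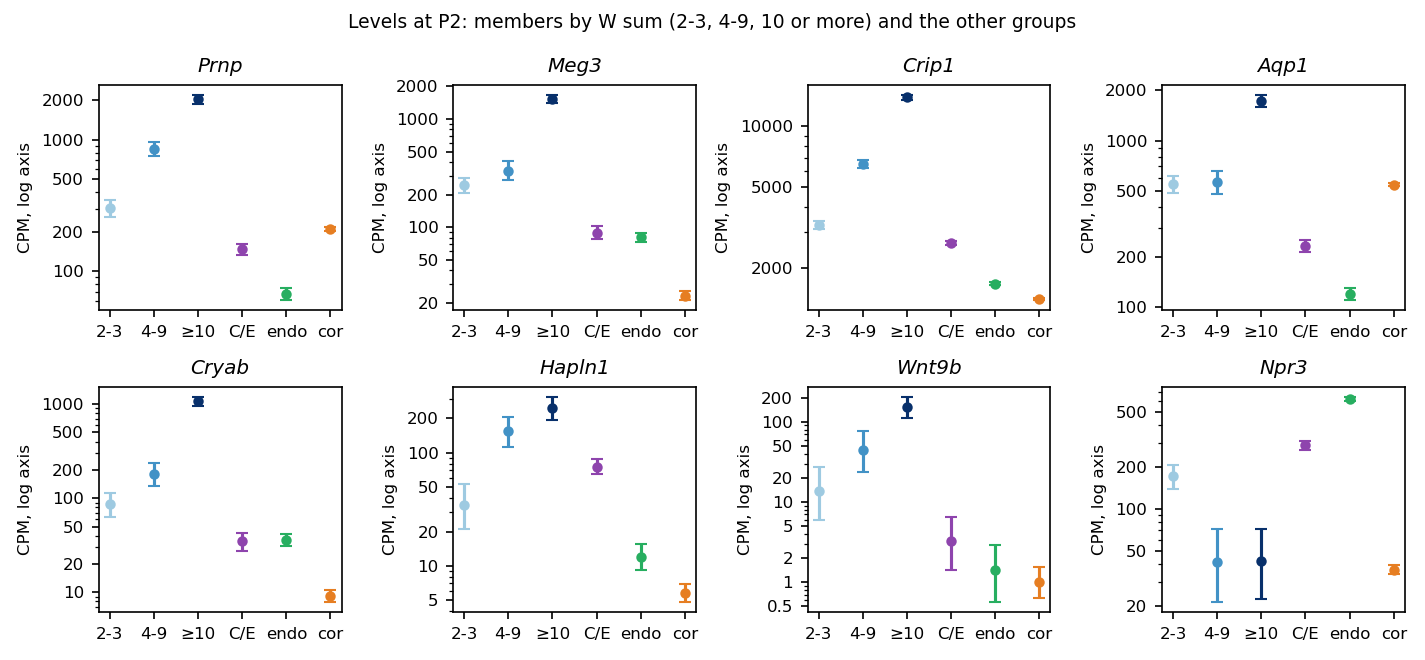
Level at P2 (CPM, log axis) of 8 genes in Pthlh/Wnt4 cells with W sums of 2 to 3, 4 to 9 and 10 or more, in Cldn11/Enpp2 cells (C/E), endocardial-rule cells (endo) and coronary-rule cells (cor); lines are 95% Poisson intervals. Prnp, Meg3, Crip1, Aqp1, Cryab, Hapln1 and Wnt9b are highest at sums of 10 or more, Npr3 in endocardial-rule cells.

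Pth1r, the receptor of the Pthlh product, had 1 UMI over all 246 members, at P2 (0.847 CPM). Endocardial-rule cells held 15.1, 4.71, 3.01 and 0 CPM over the stages, and at E12 and E15 the members were too few to detect such levels, since 1 UMI is 29.7 and 19.1 CPM there. Npr2, the receptor of C-type natriuretic peptide, was at 7.62 CPM in the P2 members and 12.4 CPM in endocardial-rule cells, with 0 UMIs in the members of E12 and E15. Npr3 was called lower than in endocardial-rule cells, where it is a rule gene. It was at 89.0, 191, 106 and 94.2 CPM in the members against 713, 690, 618 and 1094 CPM. Of the 9 genes of the natriuretic list 4 could be tested against endocardial-rule cells, and Npr3 was the 1 called, beside 0.601% of all genes lower.

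Among 13 Wnt ligands only 3 could be tested against endocardial-rule cells, and Wnt4, a gene of the rule, was the 1 called, beside 0.984% of all genes higher and 0.601% lower. Wnt9b, a ligand known from valve endothelium under flow, was too sparse at E15 for a call. It was at 208 CPM (7 UMIs), 153 CPM (8 UMIs), 57.6 CPM (68 UMIs) and 226 CPM (12 UMIs) in the members, and at 0, 4.12, 1.40 and 0 CPM in endocardial-rule cells. Cldn11/Enpp2 cells had 0, 41.1, 3.27 and 0 CPM. The ratio over stages was 15.5 (8.44 to 28.4) to Cldn11/Enpp2 cells and 51.6 (26.95 to 98.9) to endocardial-rule cells. In the P2 members Wnt9b was higher at a higher W sum, at 13.7, 44.7 and 153 CPM. Of 17 Wnt receptors 7 could be tested and none was called. Of 8 Wnt targets 2 could be tested and none was called, and the feedback inhibitor Nkd1 was at 91.5 CPM in the P2 members, 78.2 CPM in Cldn11/Enpp2 cells and 19.0 CPM in endocardial-rule cells.

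Of the 14 flow-response genes, all tested against endocardial-rule cells, Klf4 was called higher and Edn1 lower. Of all genes tested 0.984% were higher and 0.601% lower. The median log2 ratio of the list was 0.45 at E15 and 0.46 at P2, against -0.08 and -0.03 over all genes. Klf4, a transcription factor induced by laminar flow, was at 208, 268, 503 and 528 CPM in the members against 30.3, 42.4, 160 and 125 CPM, with a P2 ratio of 3.15 (2.82 to 3.503). Its level in Cldn11/Enpp2 cells was 0, 30.9, 227 and 174 CPM, and Klf4 was too sparse for a call against them. Klf2 was at 712, 803, 2470 and 584 CPM against 297, 451, 1433 and 215 CPM, below the 2-fold limit at both E15 (1.78) and P2 (1.72). Nos3, the endothelial nitric oxide synthase, had a P2 ratio of 1.87 (1.61 to 2.17). The heat shock list held Cryab and Hspb1 as higher of 7 tested, and the immediate-early list Atf3 and Nr4a1 of 9. The median log2 ratios at E15 and P2 were 0.81 and 0.58 for the heat shock list and 0.52 and 0.78 for the immediate-early list. For Cryab, 238 of 430 UMIs at P2 lay in 1 cell. These lists respond to dissociation as well, and digestion differed between the embryonic and postnatal libraries.

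Few genes of the matrix and transcription factor lists were called. Of 21 valve matrix genes tested against endocardial-rule cells, Hapln1 was higher and Bgn lower, with medians of -0.37 at E15 and -0.01 at P2 against -0.08 and -0.03 over all genes tested, of which 0.984% were higher and 0.601% lower. Bgn, the proteoglycan biglycan, was at 95.5 and 251 CPM at E15 and P2 in the members against 491 and 603 CPM. Of 15 transcription factors Tbx20, a T-box factor of endocardium and valves, was the 1 called. It was at 208, 95.5, 46.6 and 75.4 CPM in the members and at 58.9, 35.3, 8.82 and 58.2 CPM in endocardial-rule cells. Of 16 BMP and TGF-beta genes Id2 was lower, at 323 CPM at P2 against 772 CPM. None of 10 Notch genes and none of 4 genes of the endocardial-to-mesenchymal transition was called. Of 11 ADAMTS, MMP and TIMP genes only Adamts8, a rule gene, was called.

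Some junction and cell division genes were called higher than in endocardial-rule cells. Cldn5 and Jam2 were the 2 of 12 junction genes called higher than in endocardial-rule cells, but Cldn5 is a gene of the coronary rule that those cells were chosen against. Cldn5 at P2 was at 369 CPM in the members, 755 CPM in Cldn11/Enpp2 cells and 1433 CPM in coronary-rule cells, and over the W ranges it went from 543 to 137 CPM. Of 10 cell division genes Ccnb1, Birc5 and Ube2c were higher than in endocardial-rule cells, beside 0.984% of all genes tested. The median log2 ratio of this list was 0.38 at E15 and 1.05 at P2, against -0.08 and -0.03 over all genes. Birc5 was at 119, 191, 102 and 0 CPM in the members, with 26 of 174 cells holding a UMI at P2, and at 85.5 CPM in P2 Cldn11/Enpp2 cells and 190 CPM in coronary-rule cells. None of the 6 cell division genes tested against Cldn11/Enpp2 cells was called. The median depth at E15 and P2 was 1276 and 6204 UMIs in members and 1123 and 4389 UMIs in endocardial-rule cells. The part of depth in the cell division calls was not tested.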

How the data were processed

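The submitters prepared droplet 3' libraries of the sorted cells, and their processing notes name Cell Ranger 2.2. The deposited values are counts, whole UMIs per gene and barcode for 27998 genes, mapped to mm10 by the authors and not normalized. The E15, P2 and adult matrices hold called cells. The E12 matrix holds 164006 barcodes with a UMI, of which the 5732 with at least 452 UMIs (a cutoff of 0.1 times the 0.99 quantile over 3000 expected cells) were used, with 88.7% of its UMIs. Total depth was 8122358, 7079759, 29645059 and 7650091 UMIs in stage order. The libraries shared 255 barcodes over all pairs, and no member barcode was a member in 2 libraries.

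UMIs were summed per group and stage and given as CPM of the group's UMIs with exact Poisson intervals. Ratios have exact conditional binomial intervals, and ratios over stages are Mantel-Haenszel ratios with stage as the stratum, with a normal interval on the log scale. Genes needed 20 UMIs over both groups. Genes reported are the rule genes, Cryab, Hapln1, the fixed lists and up to 12 genes per direction with the largest ratio in the weaker of E15 and P2. The members, markers and lists were chosen with earlier results of these data known. Several lists hold genes from such results and are not independent of them.

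Doublets were scored with the Scrublet algorithm (0.8% expected per 1000 cells), written out in Python 3.11.15 with numpy 2.4.6, scipy 1.17.1 and scikit-learn 1.9.0, and barcodes with a score over 0.15 were kept in the values of the report. They numbered 322, 438, 236 and 98, and 2, 2, 15 and 0 members were among them. That was 8.70%, 6.06%, 8.62% and 0% of members, against 5.62%, 7.23%, 4.01% and 2.31% of all barcodes. No limit on depth or mitochondrial share was set, and 21 of 246 members lay past the limits of the study. The 2-fold limit of the calls and the interval of a ratio were tested on counts simulated from the P2 library. The other steps were not tested in this way. Alternatives were the threshold and genes of the W sum, a V sum of 0, endothelial UMIs, the study's limits, doublet removal, thinning, the CPM added, the minimum of UMIs, the E12 cutoff and the neighbour settings. A W sum of 10 or more and the removal of 1 cell rich in Cryab were added after seeing the data. Protein sequences and the promoter of Adamts8 are not used here, and 1 gene of the lower list is not reported here.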

Additional observations from a re-analysis of the deposited data

Results flagged for a closer look

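Elastin (Eln) and Sparc were picked out because their ratios lay on opposite sides of 1 at E15 and P2, with intervals that excluded 1. The Eln ratio of Pthlh/Wnt4 cells to Cldn11/Enpp2 cells was 0.432 (0.194 to 0.873, 10 UMIs in members) at E15 and 1.47 (1.38 to 1.56) at P2. The Sparc ratio to endocardial-rule cells was 0.732 (0.528 to 0.9903) at E15 and 1.20 (1.14 to 1.25) at P2. The difference between the stages was not tested for either gene, and each stage is 1 library. Levels of Eln at E12, E15, P2 and adult were 653, 191, 1532 and 358 CPM in members and 37.9 (1 UMI), 442, 1042 and 494 CPM in Cldn11/Enpp2 cells, so the direction did not follow age. Those of Sparc were 564, 822, 2095 and 773 CPM in members and 524, 1122, 1752 and 1018 CPM in endocardial-rule cells.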

How the results depend on the processing

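The share of members over all stages was 1.45%. It was 0.928% with a W sum of at least 3, 0.710% with 2 different W genes, 1.11% with a V sum of 0, 0.327% thinned, 0.810% without Pthlh, 1.16% without Wnt4, 1.21% without Adamts8 and 0.296% with a W sum of at least 10. The Cryab ratio to Cldn11/Enpp2 cells of 9.77 was 12.8, 17.2 and 4.08 under the first 3 of these settings, 15.7 without Pthlh and 26.2 with a W sum of at least 10. Without the single cell, which a V sum of 0 also leaves out, it was 4.85. Thinning gave no value since the compared cells had no Cryab left. To endocardial-rule cells the 8.34 of Cryab became 10.6, 15.4 and 3.53 under the same 3 settings, 10.0 under the study's limits, 29.3 thinned, 21.7 with a W sum of at least 10 and 4.22 without the single cell. The Hapln1 ratio of 1.55 to Cldn11/Enpp2 cells was 2.04 with a W sum of at least 3, 2.19 with 2 W genes, 1.93 thinned (7 against 5 UMIs), 2.09 without Pthlh and 3.52 with a W sum of at least 10. Its ratio of 7.56 to endocardial-rule cells was 10.7 with 2 W genes, 11.8 thinned and 18.9 with a W sum of at least 10. None of these ratios crossed 1. The 15 higher and 11 lower calls against Cldn11/Enpp2 cells were 4 and 4 with 50 UMIs per gene and 44 and 34 with no minimum. Against endocardial-rule cells the 72 and 44 calls were 114 and 111 with 5 CPM added, and 39 were higher with 50 UMIs per gene. The cause of these shifts was not tested. Neighbour shares stayed within counting error with 10 neighbours or 15 components. Calls could not be made where E15 fell under 30 members, as with a W sum of at least 3, 2 W genes, 2 endothelial UMIs, the study's limits, thinning, or the W sum without Pthlh, Wnt4 or Adamts8. Of 33 members at E15, 13 were left with a W sum of at least 3 and 12 without Wnt4. Without Wnt4, 9 of 23 were left at E12, and without Pthlh 2 of 16 in the adult. Of 56 shares by stage, 20 moved out of the interval of the reported value. For the other named genes, 86 of 246 ratios to Cldn11/Enpp2 cells and 71 of 198 to endocardial-rule cells moved out of the interval of the reported value, and none crossed 1. Each stage has a single replicate number, so replicates could not be paired between stages. Groups occur together within each library, but no paired test between them was made. No result comes from a test. Ratios over stages compare groups within each library. The embryonic members hold few UMIs, so a gene with 1 to 3 UMIs at E12 or E15 carries no more than its presence.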

Other observations

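Single cells held much of some transcripts in the smaller groups. In the adult members, 55 of 63 Fos UMIs and 30 of 32 Junb UMIs came from 1 cell, as did 19 of 24 Gkn3 UMIs. All 39 Nppa UMIs of the E15 members came from 1 cell of 693 UMIs. The Wnt inhibitor Dkk2 was at 61.8 CPM (73 UMIs in 24 cells) in the P2 members, 2.46 CPM in Cldn11/Enpp2 cells and 2.61 CPM in endocardial-rule cells. Inhba, the activin A subunit, was at 158 CPM in the P2 members against 53.2 and 20.2 CPM, and Hey2, a Notch target, at 43.2 CPM against 11.5 and 3.21 CPM. These genes were too sparse at E15 for a call and were chosen after their values were seen.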
